A study of Mus musculus with 6 samples.

Results

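Axon guidance ligands and receptors are the ephrins with their Eph receptors, the semaphorins with neuropilins and plexins, the netrins with Dcc and Unc5, and the Slits with Robo. They were examined here in embryonic mouse cortex in which the expressed, paternal copy of the imprinted gene Mest (Peg1) is disrupted. Members were all probes whose gene symbol in the array's annotation matches one of these family names, 60 genes with 68 probes among the 15063 named genes and 21766 probes of the array. Of these, 58 probes of 51 genes had enough values to be tested, among 17476 tested probes in all. The 10 probes without a test were those of Efna2, Efnb1, Sema3b, Sema3d, Sema3e, Sema3f, Sema4d, Plxnb2, Unc5b and the second of the Sema7a probes, and they had values on 0 to 4 arrays. The rule matched no probe of Ephb2, Plxna4 or Unc5d. It also caught Unc50, which encodes a Golgi membrane protein, and Unc5cl, which encodes a death-domain protein related to the Unc5 tail, and neither is a netrin receptor.

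Both groups were cortices of mouse embryos at E12.5. Mutants had inherited from their father a Mest allele interrupted by LacZ and without exons 3 to 8, and from a wild-type mother a copy that imprinting keeps silent, and controls were wild type. Each of 6 two-colour arrays set 1 mutant cortex against 1 wild-type cortex, with mutants 3, 5 and 6 in Cy5 and mutants 1, 4 and 7 in Cy3. Mutants 3 and 1 were taken to share wild type 2, mutants 5 and 4 shared wild type 8, and mutants 6 and 7 shared wild type 9. The label of the array of mutant 3 names wild type 1, which the study's design text does not list. Every value is a log2 ratio, mutant over wild type, after the array's median was set to 0, and the fitted ratio is the genotype term of a limma model with a term for the dye orientation and the shared wild type as a block. The arrays give ratios and no level, so they do not show which members the tissue expressed. In a whole cortex, fewer cells that express a gene and less of its RNA per cell cannot be told apart.

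Guidance cues tell a growing axon or a migrating neuron where to go. Ephrins are tethered to the membrane and act on Eph receptor kinases of touching cells, the A class through a lipid anchor and the B class through a transmembrane stem, and the ephrin itself can also signal. Class 3 semaphorins are secreted and bind neuropilins, which pair with A plexins to carry the signal, whereas most other semaphorins are membrane proteins that bind plexins directly. Netrins attract through Dcc and can repel through Unc5 receptors, and Slits repel through Robo receptors. At this stage the cortex holds mostly dividing progenitors and its earliest neurons, and the same families take part in cell sorting, neuronal migration and vessel growth.

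The arrays had values for 16422 to 19564 probes, fewest on the array of mutant 5, which also had the widest spread of ratios (median absolute deviation 0.57, against 0.32 to 0.50 on the other 5). The targeted gene Mest lay at -1.59 (standard error 0.13, 95% confidence interval -1.91 to -1.27) and below 0 on 6 of 6 arrays, but the direction of all ratios was read from that gene, so this does not check the labels. Markers of other tissues were set beside the members. The endothelial list had 5 of 10 probes above 0 and a median of -0.026, the list for meninges and mesenchyme 4 of 8 and 0.0054, and the ventral telencephalon list 2 of 6 and -0.11. All 5 tested red blood cell probes lay below 0 (median -0.29), 4 of them with an unadjusted p under 0.05 in limma (2.33% of all tested probes were lower at that p). Of the diencephalon probes, 5 of 7 lay above 0 (median 0.30). The 2 with an unadjusted p under 0.05 in limma were both probes of Tcf7l2, and both were higher. Of all tested probes, 1.6% were higher at that p. The cortical list of progenitor and neuron genes had 5 of 13 above 0 and a median of -0.013.

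No guidance probe passed the adjusted threshold of 0.05 in limma, and neither did any of the 17476 tested probes (0%). The disrupted gene Mest had the smallest unadjusted p of all tested probes (limma, 3.4e-05), and its adjusted p was 0.60. An adjusted p above the threshold thus does not show that a member was unchanged. The smallest adjusted p among members was 0.90. At an unadjusted p under 0.05 there were 2 members higher in mutants, the ephrin Efna5 and the second Sema3c probe, against 1.6% of all tested probes, and 0 lower, against 2.33%. A share of 2 in 58 is near the 3.93% of all probes that lay below this p in either direction. Leaving out the array of mutant 4 brought the higher count to 1. With 1 array left out, the fitted ratio of 29 of the 39 tested probes named below moved by over 1.5 times at least once. That of 10 did not, which were Efna5, Efnb2, Nrp1, Sema4b, Sema5a, Sema6a, Plxnb3 and single probes of Sema3c, Plxna2 and Slit3. This count was not made over all tested probes. A ratio near 0 passes the factor with a small shift, and the named probes were partly chosen for a small p.

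Fitted ratios were above 0 for 37 of the 58 members and below 0 for 21, where 51.3% of all tested probes were above 0. The median over members was 0.070, beside 0.0069 over all tested probes. Medians on single arrays were taken over all member probes with a value, tested or not. On the single arrays the median of the members was 0.13, 0.24 and -0.026 for mutants 3, 5 and 6 and -0.017, 0.086 and -0.0010 for mutants 1, 4 and 7 (mean 0.069 ± 0.11, SD, n = 6). It was thus above 0 on 3 of 6 arrays and highest on the array of mutant 5. Without that array the median over members was 0.0042, with 31 of 58 above 0. The 28 ligand probes had a median of 0.022 with 16 above 0, and the 28 receptor probes a median of 0.097 with 20 above 0.

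**Figure D1:**
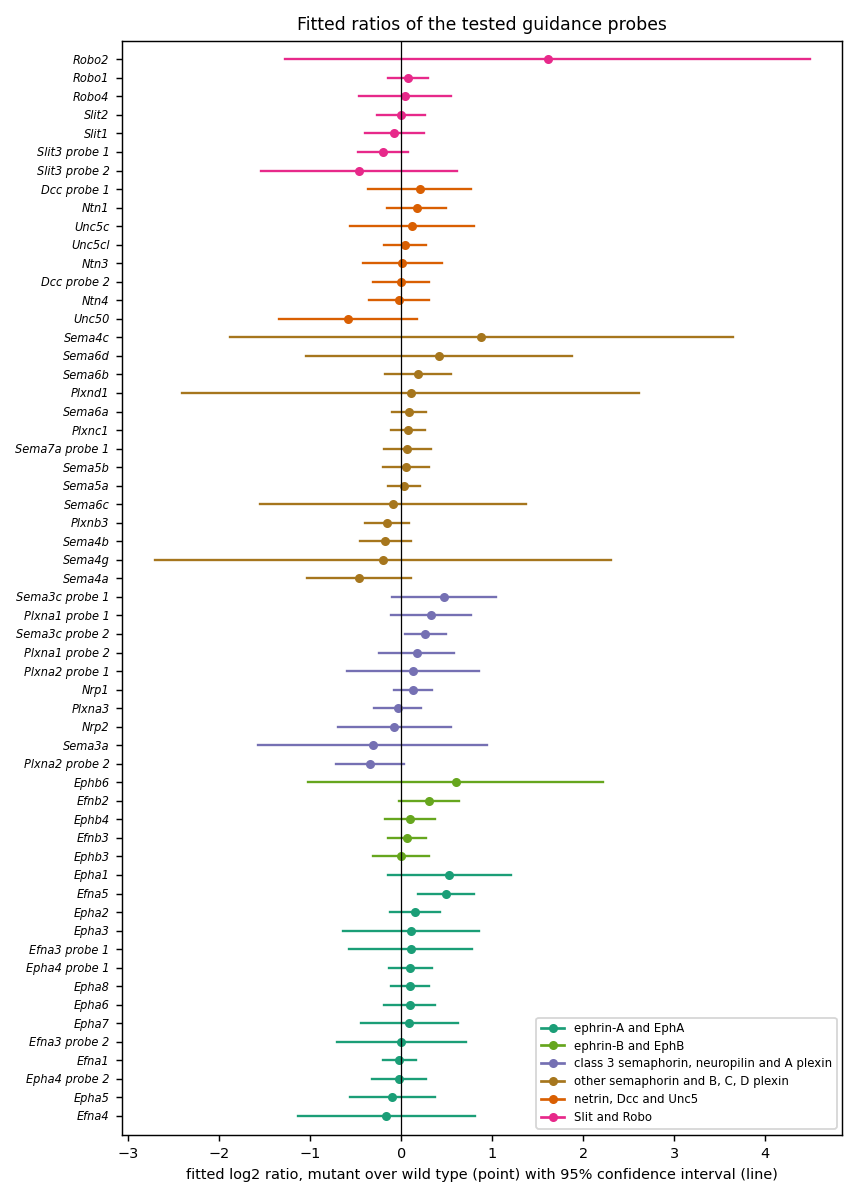
Fitted log2 ratio of mutant over wild type (horizontal axis) for each of the 58 tested guidance probes (vertical axis, coloured by system), with the point at the fitted value and the line as its 95% confidence interval. The intervals of Efna5 and the second Sema3c probe are the 2 that do not reach 0, and Robo2 has the widest, from -1.27 to 4.49.

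The precision differed widely between members. The 95% confidence interval lay within 0.5 of 0 for 28 of 58 members (48.3%, against 44.2% of all tested probes). It lay within 1 of 0 for 44 (75.9%, against 70.9%). The fitted ratio was beyond 0.5 in size for 5 members (8.62%, against 13.1%), which were Robo2, Sema4c, Ephb6, Epha1 and Unc50, and the interval of each of these included 0. Values on all 6 arrays were at hand for 50 of 58 members, against 77.4% of all tested probes. Among these 50, the values of Efna5 and Efnb2 were above 0 on every array (1.95% of all tested probes were), and those of 0 members were below 0 on every array (2.38%).

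In the ephrin-A and EphA system, 10 of 14 tested probes lay above 0, with a median of 0.095. Efna5, a lipid-anchored ligand known for its part in thalamocortical and retinal mapping, had the smallest p of all members. Its log2 ratios were 0.23, 0.78 and 0.42 in mutants 3, 5 and 6 and 0.33, 0.45 and 0.75 in mutants 1, 4 and 7. All 6 were above 0, mutants 5 and 7 were highest and mutant 3 lowest, and the dye orientations overlapped, with means of 0.48 in Cy5 and 0.51 in Cy3. The fitted ratio was 0.49 (standard error 0.12, 95% confidence interval 0.19 to 0.80), a level 1.41-fold higher in mutants, with an unadjusted p of 0.0081 and an adjusted p of 0.90 (limma, above 0 on 6 of 6 arrays). It did not pass the adjusted threshold. Beside it, the diencephalon marker list had array medians of 0.33, 0.23 and 0.36 for mutants 3, 5 and 6, and -0.079, -0.011 and 0.089 for mutants 1, 4 and 7. Both probes of its member Tcf7l2, a transcription factor of thalamic neurons, lay above 0 on every array with a value (fitted 0.39 and 0.66). The other diencephalon genes did not share this, with Irx1 at -0.24 and below 0 on 5 of 6 arrays, Otx2 at -0.010, Lhx9 at 0.045, Irx3 at 0.30 with 3 of 6 arrays above 0, and Gbx2 at 0.35 with both Cy5 values above 0 and both Cy3 values below. The part of tissue other than cortex in the Efna5 ratio was not tested.

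Several EphA receptors had fitted ratios near 0, some of them with wide intervals. Epha4, which binds ephrins of both classes, has a pair of probes at 0.099 (standard error 0.093) and -0.025 (standard error 0.12). Values of the first were 0.033, 0.25 and 0.14 in mutants 3, 5 and 6 and -0.20, 0.18 and 0.19 in mutants 1, 4 and 7. Those of the second were -0.063, -0.21 and -0.034, and -0.089, -0.18 and 0.43. The first was above 0 in 5 of 6 mutants and the second in 1 of 6, mutant 7, so the pair differed in sign while both intervals lay within 0.5 of 0. Epha7, a receptor expressed in graded fashion across the cortex, was at 0.089 (standard error 0.21), from -0.50 in mutants 3 and 1 to 0.73 in mutant 5. Epha8 (0.097, standard error 0.085) and Epha2, better known from epithelia (0.15, standard error 0.11), were a little above 0, and for both the values in Cy5 lay wholly above those in Cy3.

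Epha1, likewise an epithelial receptor, had the highest fitted ratio of the system, 0.53 (standard error 0.27, 95% confidence interval -0.15 to 1.20). Its ratios were 0.23, 1.79 and 0.78 in mutants 3, 5 and 6 and 0.15, 0.68 and -0.45 in mutants 1, 4 and 7. Without the array of mutant 5 the ratio was 0.31, and without both arrays of wild type 8 it was 0.17, below Efna5 in the same fits (0.42 and 0.43). Mutant 5 was highest and mutant 7 alone below 0, and 3 of its deposited values are those of ratios between whole numbers from 1 to 10, a pattern seen for 2 or more values in 4 members (6.90%) and in 6.2% of all tested probes. The remaining probes of the system, those of Efna1, Efna3, Efna4, Epha3, Epha5 and Epha6, lay between -0.16 and 0.11. The 95% confidence interval reached from -0.64 to 0.85 for Epha3 and from -0.56 to 0.37 for Epha5. Efna2 had a value on 1 array.

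**Figure D2:**
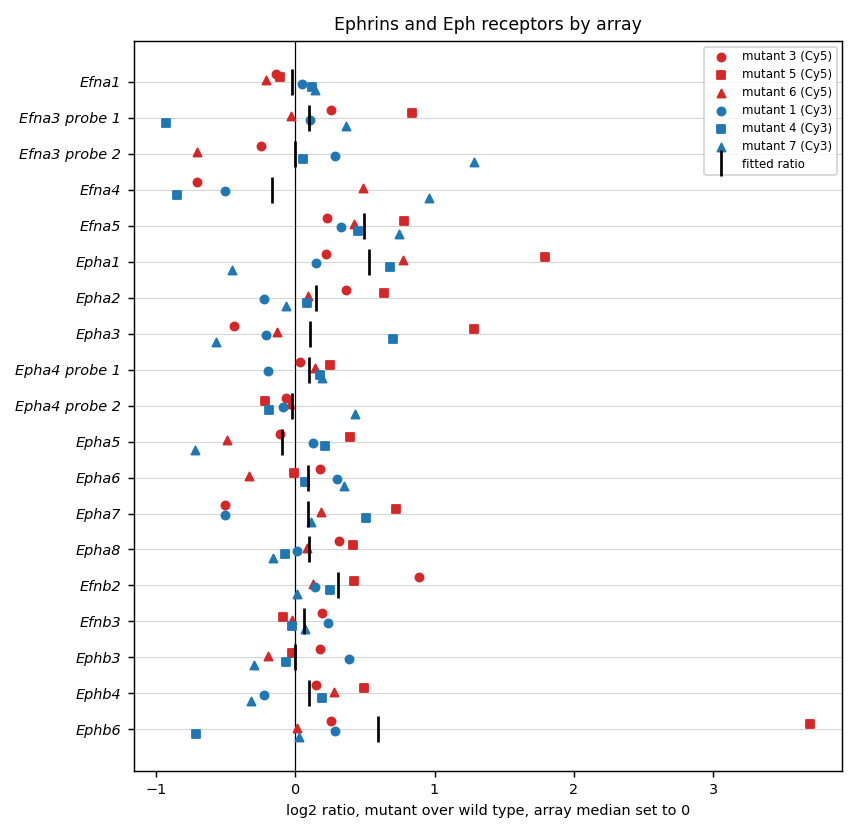
Log2 ratio of mutant over wild type on each array (horizontal axis) for the 19 tested ephrin and Eph probes (vertical axis), with red symbols for mutants in Cy5, blue for mutants in Cy3 and a black bar at the fitted ratio. Efna5 and Efnb2 have all 6 symbols above 0, and mutant 5 stands apart for Ephb6 at 3.70.

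In the ephrin-B and EphB system, 4 of 5 tested probes lay above 0, with a median of 0.096. Efnb2, a transmembrane ligand of forebrain and of arterial endothelium, gave 0.89, 0.42 and 0.13 in mutants 3, 5 and 6 and 0.14, 0.25 and 0.014 in mutants 1, 4 and 7. All 6 were above 0, with mutant 3 highest and mutant 7 close to 0. The fitted ratio was 0.31 (standard error 0.13, 95% confidence interval -0.020 to 0.64; limma, unadjusted p = 0.061, adjusted p = 0.90). The endothelial list beside it had 5 of 10 probes above 0, with medians between -0.24 and 0.19 on the single arrays, and Ephb4, the receptor of venous endothelium, was at 0.096 (standard error 0.11). Efnb3, also a transmembrane ligand, was among the 3 members with the narrowest range over arrays, from -0.088 to 0.24, with a fitted ratio of 0.061 (standard error 0.083).

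Ephb6, a receptor whose kinase domain is inactive, had a fitted ratio of 0.60 (standard error 0.65) that turned on 1 array. Mutant 5 was at 3.70 and the other 5 lay between -0.71 and 0.29. Without the array of mutant 5 the fitted ratio was 0.0033. Ephb3 was at -0.0026. Efnb1 had values of 0.88 in mutant 6 and -2.53 in mutant 4 and no others.

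In the class 3 semaphorin system, 6 of 10 tested probes lay above 0, with a median of 0.13. Sema3c, a secreted ligand of cortical neurons and of the outflow tract, was measured by 2 probes. The first gave 0.53, 0.43 and 0.28 in mutants 3, 5 and 6 and -0.14, 1.32 and 0.40 in mutants 1, 4 and 7, with a fitted ratio of 0.47 (standard error 0.23, 95% confidence interval -0.10 to 1.05; limma, unadjusted p = 0.090, adjusted p = 0.90). The second gave 0.59, 0.37 and 0.43, and 0.11, 0.20 and -0.13, with a fitted ratio of 0.26 (standard error 0.090, 95% confidence interval 0.036 to 0.49; limma, unadjusted p = 0.030, adjusted p = 0.90, above 0 on 5 of 6 arrays). Each probe was above 0 in 5 of 6 mutants, but the one below 0 was mutant 1 for the first and mutant 7 for the second. For the second probe the values in Cy5 lay wholly above those in Cy3 (means 0.46 and 0.060), whereas those of the first overlapped (means 0.41 and 0.53). Without the array of mutant 4 the first probe lay at 0.27. Averaged into 1 value per gene, Sema3c lay at 0.37.

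Sema3a, the secreted repellent that also orients apical dendrites, was at -0.31 (standard error 0.50). Its ratios were -0.56, 0.64 and 0.023 in mutants 3, 5 and 6 and -0.30, 0.80 and -2.49 in mutants 1, 4 and 7. Mutant 7 was far below the other 5, which fell on both sides of 0, and without its array the fitted ratio was 0.14. Sema3b and Sema3d had 4 values each, of which 1 was in Cy5, Sema3e had 3 and Sema3f none.

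Among the receptors of these ligands, Nrp1, which binds Sema3a, was at 0.13 (standard error 0.083), from -0.080 in mutant 1 to 0.35 in mutant 5 and above 0 in 5 of 6 mutants. Nrp2, which binds Sema3f, was at -0.078 (standard error 0.25), from -0.71 in mutant 1 to 0.997 in mutant 3. Its 95% confidence interval reached from -0.70 to 0.54. The first Plxna1 probe was at 0.33 (standard error 0.17; limma, unadjusted p = 0.12) and the second at 0.17. The probes of Plxna2, a receptor of Sema6a as well, went apart. The first gave -0.010, 1.10 and -0.46 in mutants 3, 5 and 6 and -0.049, 0.88 and -0.67 in mutants 1, 4 and 7 (fitted 0.13, standard error 0.29). The second gave -0.30, 0.16 and -0.48, and -0.13, -0.47 and -0.81 (fitted -0.34, standard error 0.15; limma, unadjusted p = 0.067, adjusted p = 0.90). The first was above 0 in mutants 5 and 4, which share a wild type, and the second was below 0 in all but mutant 5. Plxna3 was at -0.039.

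In the system of the other semaphorins and the B, C and D plexins, 9 of 14 tested probes lay above 0, with a median of 0.061. Sema4a, a membrane semaphorin known from immune cells and retina, had the smallest p of the system and a negative ratio of -0.46 (standard error 0.23; limma, unadjusted p = 0.091, adjusted p = 0.90). It gave -1.47, -1.38 and -0.39 in mutants 3, 5 and 6 and 0.46, 0.21 and -0.20 in mutants 1, 4 and 7. The orientations did not overlap, all 3 values in Cy5 being below those in Cy3, and in Cy3 alone the mean was 0.16. Sema4b was at -0.18 (standard error 0.11) and above 0 in mutant 3 only, and its values in Cy5 lay above those in Cy3.

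Sema5a, a transmembrane semaphorin with thrombospondin repeats, had the narrowest range of all members. Its 6 values lay between -0.010 and 0.086, with a fitted ratio of 0.032 (standard error 0.070, 95% confidence interval -0.14 to 0.21). Sema6a, a ligand of A plexins, was at 0.089 (standard error 0.075), with all values in Cy3 (0.13 to 0.31) above those in Cy5 (-0.10 to 0.032). Sema6b was at 0.18 (standard error 0.13) on 5 arrays, after its value on the array of mutant 5, at the ceiling of the deposited range, was treated as missing. With that value kept the fitted ratio was 2.77, and without the array of mutant 3 it was 0.037. Plxnb3, a receptor of Sema5a, was at -0.16 (standard error 0.096) and below 0 in 5 of 6 mutants.

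The widest ranges in this system were those of Sema4g and Plxnd1. Sema4g ran from -4.55 in mutant 7 to 1.83 in mutant 4, and Plxnd1, an endothelial receptor that is also found on neurons, from -2.62 in mutant 5 to 3.12 in mutant 4. Their fitted ratios, -0.20 and 0.10, had standard errors of 0.995 and 0.94 and set no useful limit. Sema4c (0.88, standard error 0.92, 4.32 in mutant 5), Sema6d (0.42, standard error 0.58, 3.10 in mutant 5) and Sema6c (-0.093, standard error 0.58), picked out here after their values were seen, were nearly as uneven. Sema5b, the tested Sema7a probe and Plxnc1 were between 0.056 and 0.074, with standard errors of at most 0.10. Sema4d and Plxnb2 had 3 values each.

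In the netrin system, 5 of 8 tested probes lay above 0, with a median of 0.028. The counts and medians of this system, here and by array below, include Unc50 and Unc5cl, which were caught by name. Ntn1, the founding netrin, gave 0.41, -0.24 and 0.0060 in mutants 3, 5 and 6 and 0.26, 0.068 and 0.51 in mutants 1, 4 and 7. Mutant 5 alone was below 0, and the fitted ratio was 0.17 (standard error 0.13, 95% confidence interval -0.15 to 0.49). It was 0.081 without the array of mutant 3. Ntn3 and Ntn4 were at 0.012 and -0.026. All 3 netrin intervals lay within 0.5 of 0.

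Dcc, the attractive receptor, had probes at 0.20 (standard error 0.23) and -0.0048 (standard error 0.12). The first was at 1.21 in mutant 5 and between -0.21 and 0.33 in the others, and without the array of mutant 5 it lay at -0.017. The second lay between -0.41 in mutant 7 and 0.24 in mutant 5. Unc5c, a repulsive receptor, gave 0.47, 1.89 and 0.46 in mutants 3, 5 and 6 and -0.38, -0.89 and -0.85 in mutants 1, 4 and 7. It was above 0 in every Cy5 array and below 0 in every Cy3 array, and the fitted genotype ratio of 0.12 (standard error 0.27) lay between groups that did not meet. Unc5b had values of 1.19 and 1.55 in Cy5 and -2.32 in Cy3. Of the genes caught by name, Unc50 was at -0.58 (standard error 0.30) with mutant 7 at -2.26, and at -0.30 without that array, and Unc5cl was at 0.045.

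In the Slit and Robo system, 3 of 7 tested probes lay above 0, with a median of -0.0024. All 4 probes of the ligands were below 0 and all 3 of the receptors above 0, with intervals that included 0 in every case. Slit3 had probes at -0.20 (standard error 0.11, limma, unadjusted p = 0.12) and -0.46 (standard error 0.43). The first lay between -0.39 in mutant 3 and 0.11 in mutant 6, with 5 of 6 below 0. The second was at -2.43 in mutant 7 and between -0.33 and 0.22 in the others, and without the array of mutant 7 it lay at -0.044. Slit1 was at -0.076 (standard error 0.12, 5 arrays) with the orientations apart, 0.24 and 0.11 in Cy5 and -0.065, -0.32 and -0.60 in Cy3. Slit2 was at -0.0024 (standard error 0.10), from -0.27 in mutant 1 to 0.26 in mutant 6.

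Robo1, the main Slit receptor of young cortical neurons together with Robo2, was one of the steadiest members. Its values were -0.0080, 0.29 and -0.020 in mutants 3, 5 and 6 and -0.019, 0.20 and -0.0010 in mutants 1, 4 and 7. The arrays of mutants 5 and 4, which share wild type 8, were above 0 and the other 4 within 0.020 of it, for a fitted ratio of 0.074 (standard error 0.087). Robo2 had the widest range of all tested members, with 1.62 and 6.99 in mutants 5 and 6 and -1.76, 0.25 and -1.48 in mutants 1, 4 and 7. The orientations did not overlap, the standard error of 1.07 was of the order of the fitted ratio of 1.61, and without the array of mutant 6 that ratio was 0.010. Robo4, an endothelial family member, was at 0.040.

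**Figure D3:**
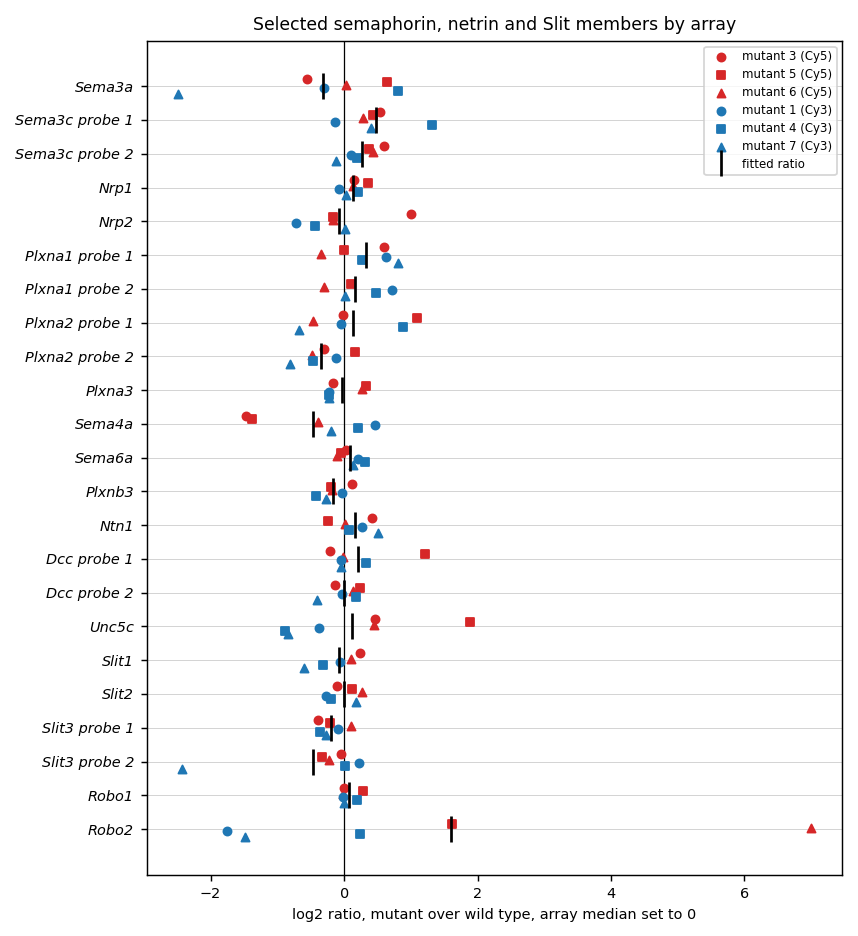
Log2 ratio of mutant over wild type on each array (horizontal axis) for 23 probes of the semaphorin, netrin and Slit systems (vertical axis), with red symbols for mutants in Cy5, blue for mutants in Cy3 and a black bar at the fitted ratio. The second Sema3c probe, Plxna3, Sema4a, Sema6a, Unc5c, Slit1 and Robo2 have red and blue symbols that do not mix. The farthest single point is that of Robo2 in mutant 6, at 6.99. Mutant 7 lies far out for Sema3a and the second Slit3 probe.

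The dye orientation moved many members. Values of the orientations did not overlap for 17 of 58 members (29.3%), against 29.8% of all tested probes. The dye term had an unadjusted p under 0.05 in limma for 11 members (19.0%, against 20% of all tested probes), and 0 passed the adjusted threshold (0.269% of all tested probes did). Besides Sema3c, Sema4a, Unc5c and Robo2, these 11 were Epha2, Epha8, Ephb4, Ntn3, Sema4b, Sema6c and Robo4. The dye coefficient, Cy5 minus Cy3, was above 0 for 36 of 58 members, against 53.9% of all tested probes. It was largest for Robo2 (5.21), followed by Sema6c at -2.70. The members thus carried a dye effect about as often as other probes.

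**Figure D4:**
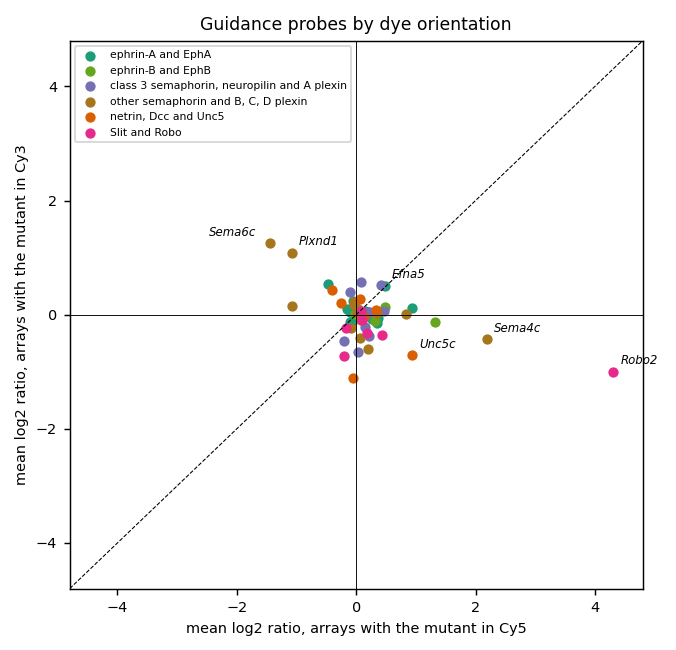
Mean log2 ratio with the mutant in Cy5 (horizontal axis) against the mean on those with the mutant in Cy3 (vertical axis) for the 58 tested probes, coloured by system, with equality as the dashed line. Efna5 lies on the line at 0.48 and 0.51, while Robo2 is at 4.31 in Cy5 and -0.999 in Cy3.

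By system and array, medians were taken over all probes with a value, tested or not. They did not keep 1 sign on all 6 arrays in any of the 6 systems. The ephrin-A and EphA median was above 0 on 5 arrays, from -0.015 in mutant 3 to 0.52 in mutant 5. The ephrin-B and EphB median was above 0 on 5 as well, from -0.043 in mutant 4 to 0.42 in mutant 5. The class 3 semaphorin median was above 0 on 4 arrays, and those of the other semaphorins and of the netrin system on 3. The Slit and Robo median was above 0 on the arrays of mutants 5 and 6 and lowest in mutant 7, at -0.60. The array of mutant 5 gave the highest median of the ephrin-A, ephrin-B, class 3 semaphorin, netrin and Slit systems.

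**Figure D5:**
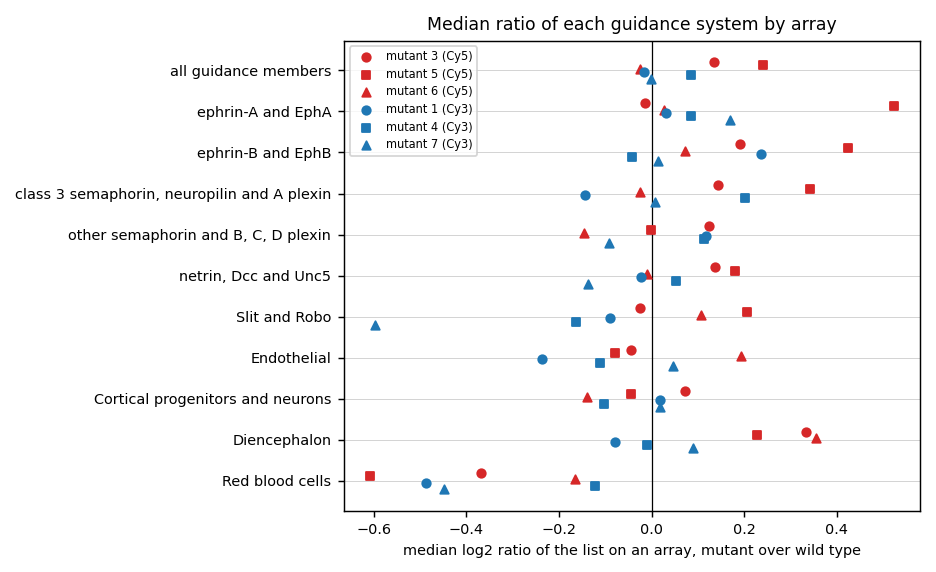
Median log2 ratio on each of the 6 arrays (horizontal axis) for each guidance system and 4 marker lists (vertical axis), over all probes with a value, tested or not. Red symbols are for mutants in Cy5 and blue for mutants in Cy3. The 6 systems have symbols on both sides of 0, mutant 5 is the highest symbol in 5 of them, and the red blood cell list is below 0 on every array.

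The wider pathway was followed through 71 genes that act with these receptors, such as adhesion partners, kinases and cytoskeletal effectors. Of these, 56 were found on the array and 55 tested, with 64 probes. Ratios were above 0 for 36 probes and below 0 for 28, and the median was 0.0086. At an unadjusted p under 0.05 there were 0 higher (against 1.6% of all tested probes) and 1 lower (against 2.33%), and 0 passed the adjusted threshold. One in 64 is below the share among all tested probes. The probe concerned was that of Vav2, an exchange factor recruited by Eph receptors, which gave -0.28, -0.26 and -0.13 in mutants 3, 5 and 6 and -0.14, -0.35 and -0.22 in mutants 1, 4 and 7. All 6 were below 0 and the orientations overlapped (fitted -0.23, standard error 0.078; limma, unadjusted p = 0.030, adjusted p = 0.90). The first-ranked probe of Neo1, a receptor related to Dcc, was at -0.55 on 5 arrays (standard error 0.21; limma, unadjusted p = 0.052), while the other Neo1 probe was at 0.035. Farp1, an effector of plexins, was at -0.27 (standard error 0.11; limma, unadjusted p = 0.055) and below 0 in 5 of 6 mutants.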

How the data were processed

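The deposited values were read as log2 ratios of Cy5 over Cy3. Neither scale nor direction is stated, and both were taken from the numbers themselves and the labelled dyes: the sign at Mest followed the dye on all 6 arrays, and the highest value, 16.61, is log2 of 1e+05. How the authors scanned, background-corrected and normalized the arrays is not given in the sources used here. Without spot intensities, faint or saturated spots were not filtered and no loess normalization was applied.

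Empty entries and values at that ceiling were treated as missing, and 232 Gapdh control spots were left out. Signs were set so that every ratio is mutant over wild type, and arrays were centred on their medians. A probe was tested if at least 4 arrays, and 2 of each orientation, had a value. The model, in limma 3.58.1 (lmFit and eBayes, R 4.3.3), had an intercept for genotype, a dye term and the shared wild type as a random block (duplicateCorrelation, consensus correlation 0.25). P-values were adjusted by Benjamini-Hochberg over all 17476 tested probes. Embryos are separate samples, but 3 wild types served 6 arrays. The precision is limited by the number of arrays.

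Gene names came from the platform's annotation, and all 68 member probes matched the RefSeq gene table of GRCm38.p6 by Entrez identifier, with 0 symbols changed. Members, marker lists and pathway genes were chosen with earlier results of these data known. Named were, per system, up to 4 probes with the smallest p, probes with 1 sign on all 6 arrays, known forebrain members, genes whose probes differ in sign, untested members and the 3 narrowest and 3 widest ranges; for the wider pathway, the 3 smallest p. Other members are listed to account for all, and Sema4c, Sema6c and Sema6d were singled out after their values were seen. Alternatives varied the centring, scaling, quantile normalization, block, dye term, missing and ceiling values, moderation, thresholds, 1 value per gene, and arrays, wild types and orientations left out. A fit without probes that hold 2 or more ratios of small whole numbers was added after the data were seen. The fit was tested on simulated data.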

Additional observations from a re-analysis of the deposited data

Results flagged for a closer look

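Of the 39 named and tested probes, 5 had 1 array far from the others by Dixon's 95% critical value. About 1 in 20 would be picked by chance if the values were normal and free of a dye effect. The share over all tested probes was not computed, and some probes were named for their wide range, so 5 of 39 cannot be read as an excess. Ephb6 was at 3.70 in mutant 5, the next value being 0.29. The second Slit3 probe was at -2.43 in mutant 7, the next being -0.33, and Unc50 was at -2.26 in the same mutant, the next being -0.68. The second Epha4 probe was at 0.43, also in mutant 7, above a next value of -0.034. Sema6b was at 0.65 in mutant 3, above a next value of 0.13 among its 5 values. No cause was tested.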

How the results depend on the processing

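Over 24 alternative settings, 0 guidance probes passed the adjusted threshold for genotype in any of them, and 0 did for the dye where it was fitted. The smallest adjusted p of a named probe was 0.30, with arrays centred on Gapdh control spots. In that fit the median over all tested probes was itself 0.26, and Sema5a, Robo1 and others had the same adjusted p. Of 930 refitted values of the 39 named probes, 863 kept their sign and 67 changed it, the changes falling on 23 probes. Efna5 stayed between 0.42 and 0.60. Its unadjusted p in limma was under 0.05 in 22 of 24, the exceptions being the fits without both arrays of wild type 9 (0.055) and with the mutant in Cy5 only (0.058). Efnb2 ranged from 0.14 to 0.48, with an unadjusted p under 0.05 in 4 of 24, and the second Sema3c probe from 0.060 to 0.46, with 15 of 24. In the fits not centred or centred on Gapdh spots, p tests the ratio before the median of all probes was subtracted. The Gapdh fit is among those counted for Efna5, Efnb2 and Sema3c, and the fit not centred is also among those counted for Efna5. The Sema3c count also includes the fit with 1 value per gene, where both probes are averaged. At an unadjusted p under 0.01, 1 member remained (Efna5), and at an adjusted p under 0.1, 0 did.

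At an unadjusted p under 0.05, in place of 2 higher and 0 lower (3.93% of all probes in either direction), limma without the block gave 3 higher and 2 lower (6.4% of all probes), and limma without the dye term 4 higher and 1 lower (6.14%). The arrays not centred gave 1 higher (1.28% of all probes) with a median over members of 0.32, and centring on Gapdh spots 13 higher (15.8% of all probes passed in one direction or the other) with a median of 0.33, where the median over all probes was itself 0.26. For these fits the ratios of single probes are given relative to that median, but the p-values test the ratios before it was subtracted. The count was 1 higher and 0 lower without both arrays of wild type 2 (3.00% of all probes), and 0 higher and 2 lower without those of wild type 9 (5.63%). Each orientation alone gave 2 higher and 1 lower (8.20% of all probes in Cy5 only and 11.0% in Cy3 only). Leaving out 1 array at a time gave 1 to 3 higher and 0 to 1 lower, and medians over members between 0.0042 and 0.091. In the fits without both arrays of a wild type, the block correlation of all arrays was used.

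Signs turned as follows. With the mutant in Cy3 only, Epha2 was at -0.068, the second Epha4 probe at 0.053, Epha8 at -0.076, Ephb4 at -0.12, Ephb6 at -0.13, Robo2 at -0.999, Sema4a at 0.16, Unc5c at -0.70 and Unc5cl at -0.046. With the mutant in Cy5 only, the second Dcc probe was at 0.077, Nrp2 at 0.22, Plxnd1 at -1.08, Sema3a at 0.035, Sema4b at 0.063, Sema4g at 0.20, Sema6a at -0.040, Slit1 at 0.17 and Slit2 at 0.092. Without the dye term Plxnd1 was at -0.23. The second Dcc probe was at 0.0075 with arrays scaled and at 0.0053 after quantile normalization. With 1 value per gene, Dcc was at 0.10, Epha4 at 0.037 and Plxna2 at -0.11, each against the sign of one of its probes. Without both arrays of wild type 2, the second Dcc probe was at 0.036, Efnb3 at -0.015, Plxnd1 at -0.41, Slit2 at 0.091 and Unc5cl at -0.023. Without those of wild type 8, the first Dcc probe was at -0.080, the second Epha4 probe at 0.062, Epha7 at -0.18, Ephb4 at -0.029, Nrp2 at 0.032, the first Plxna2 probe at -0.30, Plxnd1 at -0.52, Robo1 at -0.012, Slit2 at 0.016 and Unc5c at -0.075. Without those of wild type 9, the second Dcc probe was at 0.063, Sema3a at 0.15, Sema4g at 1.08 and Slit1 at 0.0065. Without single arrays, values ran from -0.68 to 0.14 for Sema3a, -0.30 to 0.074 for Nrp2, -0.092 to 0.24 for the first Plxna2 probe, -0.11 to 0.033 for the second Epha4 probe, -0.058 to 0.21 for Epha7, -0.017 to 0.33 and -0.071 to 0.082 for the Dcc probes, -0.12 to 0.26 for Unc5c, -0.81 to 0.65 for Sema4g, -1.01 to 1.36 for Plxnd1 and -0.052 to 0.035 for Slit2. The cause of these changes was not tested, beyond the smaller number of arrays in the fits that leave arrays out. Each ratio already pairs a mutant with a wild type, and the block pairs the arrays that share one.

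With 6 arrays and 3 wild types, and with no signal level, precision was limited. The 95% confidence interval lay within 0.5 of 0 for 28 of 58 members, and changes beyond that size were not excluded for the rest. At the adjusted threshold not even Mest, at -1.59, was called (limma, adjusted p = 0.60).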
